A study of Mus musculus with 4 samples.

Results

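Tuft cells of the mouse trachea were sought in 4 single-cell libraries by a rule on 7 genes. A barcode was taken when at least 3 of Trpm5, Pou2f3, Dclk1, Gnat3, Gng13, Avil and Il25 had a UMI (a unique molecular identifier, 1 counted RNA molecule) and when these genes summed to at least 4 UMIs. The members were thus chosen by the UMIs of these 7 genes. Barcodes entered with 500 or more genes detected and no more than 15% of UMIs from mitochondrial genes. It took 192 of 35901 barcodes, which is 0.535% (exact 95% interval 0.462% to 0.616%). Of these, 69 met a further criterion on other tuft genes and are called tuft-like below, and 123 did not meet it. The values of the 7 genes are therefore given as a description.

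The libraries came from dorsal and ventral tracheal tissue, separated under the microscope 10 days after tamoxifen. The knockout ventral and knockout dorsal libraries were from mice with the Ctnnb1-fl/fl genotype, and the control ventral and control dorsal libraries from mice with Ctnnb1-fl/+, so that the controls had 1 floxed allele of Ctnnb1, the gene for beta-catenin. All mice received tamoxifen, and all carried the alleles P63-CreER and Ki67-lsl-Dre for the recombinases together with the reporter allele Rosa26-rsr-GFP. Cre is expressed from P63, a gene of basal cells, so a tuft cell would carry the deletion only if it, or the cell it came from, had expressed P63. How many mice went into a library is not given in the sources used here. With 1 library per group there is no test between groups, and every interval below covers counting error only.

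Tuft cells, also called brush or solitary chemosensory cells in the airway, are rare epithelial cells with an apical bundle of stiff microvilli. They detect bitter compounds, succinate and other small molecules through receptors that signal by gustducin, phospholipase C and the cation channel TRPM5. They are known to release acetylcholine, cysteinyl leukotrienes and interleukin-25, and they need the transcription factor POU2F3.

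The knockout ventral library kept 6726 barcodes, the control ventral library 9744, the knockout dorsal library 6185 and the control dorsal library 13246. Median UMIs per kept barcode lay between 12400 and 15845, and total UMIs between 143588322 and 285856852. The 15187 other epithelial barcodes that serve as the comparison lay outside the rule and had at least 3 epithelial markers, at least 4 UMIs of these and more of them than of stromal and blood cell markers. Shares of epithelial barcodes are of 15379, which adds all 192 members whatever markers they had. Pairs of libraries shared between 21 and 57 barcode sequences, and 2 of the 192 barcodes had a sequence that also occurred in another library. Leaving out the doublets marked by Scrublet left the pooled share at 0.527%.

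The barcodes were divided by 20 tuft markers that the rule did not use, among them Sh2d6, Ltc4s, Gnb3 and Rgs13. In the 69 tuft-like barcodes, which had at least 5 of the 20 markers and at least 0.1% of their UMIs from them, the median share of UMIs from these markers was 1.12% and the lowest 0.106%. In the remaining 123 barcodes the median was 0.0135%, and the highest 0.281%. The groups were cut on these same markers, so the different medians are no check of the label. The ranges overlapped, since 1 remaining barcode was at or above 0.1% but had fewer than 5 of the markers. At or above 0.05% there were 6 remaining barcodes. This division was made after the values had been seen. The other 123 did not meet the criterion, and the tuft label is not used for them below.

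**Figure D1:**
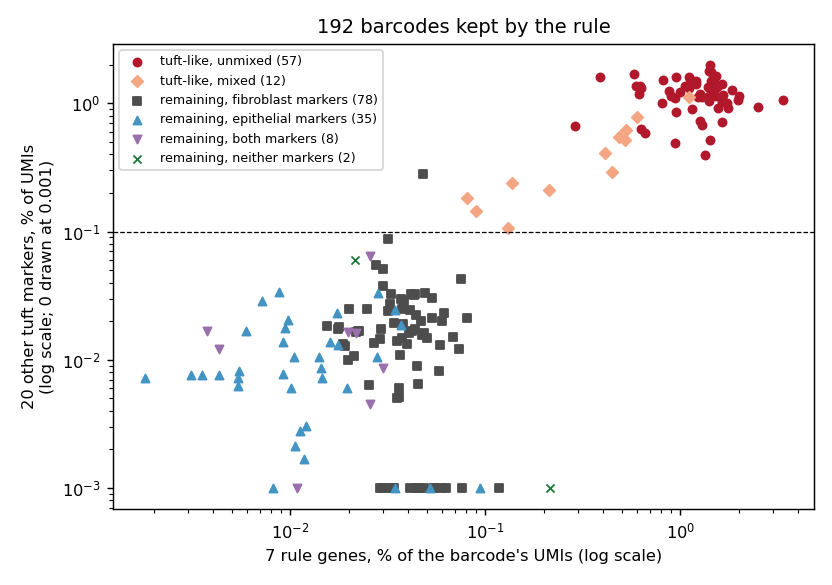
Each point is 1 of the 192 barcodes kept by the rule, with the 7 rule genes on the horizontal axis and 20 other tuft markers on the vertical axis, both as a percent of the barcode's UMIs on log scales. The 57 unmixed tuft-like barcodes lie at the top right, the 12 mixed ones between, and most of the remaining 123 lie below the dashed line at 0.1%.

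What the remaining 123 barcodes were can be read from other markers. Of these, 86 had at least 5 of 7 fibroblast markers such as Col1a1 and Dcn, 43 had at least 5 of 10 epithelial markers, 8 had both and 2 neither. They passed the rule with few UMIs, since 112 of them had at most 10 UMIs of the 7 genes. Dclk1, a microtubule-binding kinase, was at 102 CPM (UMIs of the gene per 1000000 UMIs, summed over barcodes) in fibroblast-like barcodes outside the rule, against 4.87 CPM in other epithelial barcodes. Avil, which encodes the actin-binding protein advillin, was at 21.8 CPM in the same fibroblast-like barcodes, against 5.61 CPM in other epithelial barcodes. Gnat3 and Il25 were the rule genes most seldom seen in the remaining barcodes, in 17 and 4 of 123.

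At the edge of the rule, 36 barcodes had exactly 4 UMIs, and none of the 36 was tuft-like, while 27 had fibroblast markers. Just outside it, 43 barcodes had exactly 3 UMIs of 3 genes and 762 had at least 4 UMIs of only 2 of the genes. Of each of these groups 1 barcode met the marker criterion for tuft-like. In all kept barcodes outside the rule 130 met that criterion, and 113 of these were macrophage-like. The criterion alone thus also took barcodes of another class. Macrophage-like barcodes had UMIs of 17 of the 20 markers, which summed to 1705 CPM. In macrophage-like barcodes Alox5ap was at 898 CPM and Ltc4s at 262 CPM.

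Within the 69 tuft-like barcodes, 12 also held at least 200 UMIs of basal, secretory, ciliated or fibroblast markers. Such barcodes can hold RNA of more than 1 cell. The knockout ventral library gave 5 of these mixed barcodes, the control ventral library 1, the knockout dorsal library 0 and the control dorsal library 6. Gene levels below are from the 57 unmixed tuft-like barcodes, and the levels of those 4 marker classes in them are no result. The limit is a fixed number of UMIs, and the unmixed barcodes differed in depth. Median UMIs were 33935.5 in the knockout ventral library, 23145 in the control ventral, 16769 in the knockout dorsal and 5907.5 in the control dorsal library. The 20 tuft markers helped choose these barcodes, so high levels of these markers are not independent of that choice. This holds for Gnb3, Plcb2, Rgs13, Ovol3, Hmx2, Sox9, Alox5ap, Ltc4s, Ptgs1, Chat, Sh2d6, Fyb and Vil1, and for lists that hold them.

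Tuft-like barcodes made up a larger share of the ventral than of the dorsal library in both genotypes, though in knockouts the interval for the unmixed ones among kept barcodes held 1. Of kept barcodes they were 0.253% in the knockout ventral library (17 barcodes, 95% interval 0.147% to 0.404%) and 0.328% in the control ventral library (32 barcodes, 0.225% to 0.463%). In the knockout dorsal library they were 0.0647% (4 barcodes, 0.0176% to 0.166%) and in the control dorsal library 0.121% (16 barcodes, 0.0691% to 0.196%). The ventral share was 3.91 times the dorsal one in knockouts (1.27 to 16) and 2.72 times in controls (1.45 to 5.31). Per epithelial barcode the ratio was 5.08 in knockouts (1.66 to 20.7) and 3.77 in controls (2.01 to 7.36). For the 57 unmixed tuft-like barcodes, the ratio per kept barcode was 2.76 in knockouts (0.836 to 11.7) and 4.21 in controls (2.01 to 9.64). These ratios are of 1 library over 1 library, and dissection and dissociation cannot be told apart from the region.

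Between genotypes the tuft-like share did not separate beyond counting error. The knockout share over the control share was 0.770 in ventral libraries (0.401 to 1.43) and 0.535 in dorsal libraries (0.130 to 1.66). Per epithelial barcode it was 1.04 (0.542 to 1.93) and 0.774 (0.188 to 2.40). These intervals do not show that the shares were alike, since they hold both a lower share and a larger one.

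The whole set of 192 barcodes gave another picture, and the remaining 123 were spread differently over the libraries. All barcodes of the rule were 0.639% of kept barcodes in the knockout ventral, 0.975% in the control ventral, 0.372% in the knockout dorsal and 0.234% in the control dorsal library. Knockout over control was 0.656 in ventral libraries (0.446 to 0.95) and 1.59 in dorsal libraries (0.885 to 2.81). The remaining 123 alone gave 0.598 in ventral (0.363 to 0.958) and 2.71 in dorsal libraries (1.31 to 5.74). When every barcode was thinned to 5000 UMIs before the rule was applied, it took 17, 29, 3 and 9 barcodes of the knockout ventral, control ventral, knockout dorsal and control dorsal libraries.

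**Figure D2:**
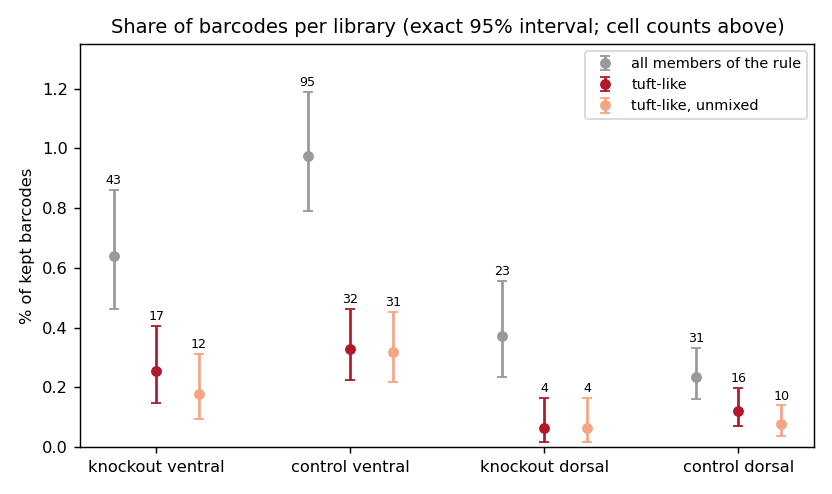
Share of kept barcodes in each library, in percent, for all barcodes of the rule, for tuft-like and for unmixed tuft-like barcodes, with exact 95% intervals and the number of barcodes above each point. The tuft-like points are higher in both ventral libraries, at 0.253% and 0.328%, than in the dorsal ones, at 0.0647% and 0.121%.

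Against other epithelial barcodes, the named genes with the highest ratios included Sucnr1, Rgs21, Rgs13 and Tas2r108. The ratio divides the UMIs found by the UMIs that other epithelial barcodes of the same libraries would give. Of 14878 genes measured with at least 10 UMIs, 18.0% were at least 2-fold higher in the 192 barcodes and 3.98% at least 2-fold lower. In the 69 tuft-like barcodes these shares were 22.4% and 12.8%, and in the 57 unmixed ones 32.3% and 14.7%. The rule chose the barcodes by expression, so these genes are described and not tested. Of the 25 named higher genes, 23 were the same whether all 192 or only the tuft-like barcodes were used. The list from all 192 also held Unc5d and Ccl11, and the list from the tuft-like ones Hmx2 and Gm17322.

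Several of these genes were almost missing from the 15187 other epithelial barcodes. Rgs21 and Rgs13 encode regulators of G-protein signalling, and had 395 and 1772 UMIs in the 57 unmixed tuft-like barcodes, against 2 and 11 in the other epithelial barcodes. Hmx3, a homeobox factor, had 139 UMIs against 2, and Sh2d7, an SH2-domain protein, 384 against 8. The level of Irag2, which encodes a protein of the endoplasmic reticulum membrane, was 3693 CPM in the knockout ventral, 3666 in the control ventral, 2803 in the knockout dorsal and 3016 in the control dorsal library. Kcnq3, a potassium channel subunit, was at 1004, 787, 419 and 626 CPM in the same order of libraries. Both genes were outside the rule and outside the 20 markers, and all 4 libraries had them.

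The named lower genes included secreted gland products. Dcpp3, Dcpp2, 2310057J18Rik, Crisp3, Sbpl and Lipf were among the 10 lowest both for all 192 and for the tuft-like barcodes. Dcpp3, a secreted gland protein, was at 45.1 CPM in the 192 barcodes, 0.00412 times the level expected from other epithelial barcodes. It was at 56.1 CPM in the knockout ventral library and 82.1 CPM in the control ventral library, and had no UMI in the rule's barcodes of either dorsal library. Gland cells entered the comparison through the other epithelial barcodes.

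Of 20 taste and chemosensory receptors, 8 were measured in the unmixed tuft-like barcodes, and 7 of these were at least 2-fold higher than in other epithelial barcodes, none lower, with a median log2 ratio of 6.52. Over all measured genes 32.3% were higher and the median was 0.63. Tas2r108, a bitter taste receptor, was at 606 CPM in the knockout ventral, 185 in the control ventral, 131 in the knockout dorsal and 138 in the control dorsal library. It had a UMI in 47 of 57 barcodes, while all other epithelial barcodes together had 3 UMIs. Tas2r138, another bitter receptor, had 53 UMIs, and none were in other epithelial barcodes. Tas2r105 had 39 UMIs in 6 barcodes, 35 of them in the knockout ventral library.

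The other receptors were for sweet or savoury compounds and for succinate. Sucnr1, the succinate receptor, was at 262 CPM in the knockout ventral, 242 in the control ventral, 52.4 in the knockout dorsal and 12.5 in the control dorsal library. Other epithelial barcodes held 1 UMI of it. Tas1r3, the subunit shared by sweet and umami receptors, was at 82.1, 97.4, 26.2 and 12.5 CPM in the same order. Its partners Tas1r1 and Tas1r2 had 0 UMIs in the 57 barcodes, as did the short-chain fatty acid receptors Ffar2 and Ffar3 and the leukotriene receptors Cysltr1 and Cysltr2.

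The signalling chain downstream of these receptors was present in all 4 libraries. Of 16 taste transduction genes outside the rule, 14 were measured, 12 were at least 2-fold higher than in other epithelial barcodes and none lower (median log2 ratio 3.64). Gnat3, the gustducin alpha subunit and a rule gene, was at 8416 CPM in the knockout ventral, 6106 in the control ventral, 2934 in the knockout dorsal and 5419 in the control dorsal library. Gnb3, the beta subunit that pairs with it, was at 2710, 2532, 642 and 1364 CPM in the same order. The dorsal libraries were the lower ones for Gnb3. Plcb2, the phospholipase, was at 408, 476, 576 and 325 CPM. Trpm5, the channel at the end of the chain and a rule gene, was at 1047, 844, 511 and 751 CPM. Calhm1 and Calhm3, which form the ATP release channel of taste cells, had 28 and 21 UMIs.

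Promoters of named genes were searched for the octamer ATGCAAAT on either strand, the sequence that factors of the POU2 family such as POU2F3 bind. Of the named higher genes, 18 had a promoter in the RefSeq table (GRCm38.p6, 250 bases before to 50 after the start), and 3 of these held the octamer. It was in 1.90% of the 19589 promoters of genes in the count tables, in 1 of 16 promoters of the tuft markers outside the rule, in 0 of 5 of rule genes and in 0 of 15 of the kinases and adaptors. A match says only that these letters are there, and binding was not measured. The 3 promoters shown, of Rgs21, Sucnr1 and Tas2r108, are those of the named higher genes that held the octamer. Capitals mark the octamer or its reverse complement ATTTGCAT, whose first base lies at -200, -48 and -146 from the start of each gene.
Rgs21 (chr1:144567618-144567917, minus strand): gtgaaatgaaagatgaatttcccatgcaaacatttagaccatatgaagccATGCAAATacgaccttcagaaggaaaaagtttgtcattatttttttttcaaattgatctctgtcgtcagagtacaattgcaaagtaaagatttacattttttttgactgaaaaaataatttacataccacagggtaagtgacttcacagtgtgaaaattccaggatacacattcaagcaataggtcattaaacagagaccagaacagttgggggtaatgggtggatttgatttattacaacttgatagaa
Sucnr1 (chr3:60081619-60081918, plus strand): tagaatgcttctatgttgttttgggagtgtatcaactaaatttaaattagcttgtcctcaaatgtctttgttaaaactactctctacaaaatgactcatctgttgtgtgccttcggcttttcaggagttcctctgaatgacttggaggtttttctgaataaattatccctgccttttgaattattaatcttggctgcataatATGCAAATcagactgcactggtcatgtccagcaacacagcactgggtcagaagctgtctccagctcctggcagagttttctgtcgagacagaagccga
Tas2r108 (chr6:40493342-40493641, plus strand): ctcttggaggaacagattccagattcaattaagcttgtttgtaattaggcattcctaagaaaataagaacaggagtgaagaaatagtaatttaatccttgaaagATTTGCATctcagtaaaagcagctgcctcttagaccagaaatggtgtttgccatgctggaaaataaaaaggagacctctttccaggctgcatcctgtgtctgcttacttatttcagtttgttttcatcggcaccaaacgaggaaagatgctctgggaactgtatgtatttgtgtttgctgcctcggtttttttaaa

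Of 26 transcription regulators, 23 were measured, 15 were at least 2-fold higher and 1 lower (median log2 ratio 2.27). Pou2af2, a coactivator of POU2F3, was at 549 CPM in the knockout ventral, 452 in the control ventral, 327 in the knockout dorsal and 350 in the control dorsal library, and Pou2af3, its relative, was 4.90-fold higher than in other epithelial barcodes (4.01 to 5.92). Hmx3 was at 97.5, 117, 105 and 113 CPM in the same order. Foxe1, a forkhead factor, was 19.9-fold higher (17.0 to 23.2), and Prox1, a homeobox factor, 37.6-fold (30.8 to 45.5). Sox9, also a factor of gland cells, was 8.67-fold higher (7.68 to 9.75). The lower one was Egr1, an immediate-early gene.

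The enzymes of lipid mediators split by pathway. Of 17 genes of eicosanoid synthesis, 14 were measured, 6 at least 2-fold higher and 3 lower, and the median log2 ratio was 0.03. The leukotriene C4 branch was the high part. Alox5, the lipoxygenase, was at 590 CPM in the knockout ventral, 474 in the control ventral, 511 in the knockout dorsal and 713 in the control dorsal library. Alox5ap, which presents arachidonic acid to it, was at 875, 882, 1415 and 1452 CPM, higher in the dorsal libraries. Ltc4s, the leukotriene C4 synthase, was at 2035, 1768, 2410 and 1377 CPM. Lta4h, which leads to leukotriene B4 instead, had 27 UMIs and a ratio of 0.767.

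Of the prostaglandin enzymes, the constitutive cyclooxygenase Ptgs1 was 16.1-fold higher than in other epithelial barcodes (14.5 to 17.9) and the prostaglandin D synthase Hpgds 23.0-fold (18.0 to 29.1). The inducible cyclooxygenase Ptgs2 was at 0.126 times (0.0507 to 0.260) and the prostaglandin E synthase Ptges at 0.138 times the level of other epithelial barcodes. The third lower gene was Alox15, with 0 UMIs.

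Chat, the enzyme that makes acetylcholine, was at 180 CPM in the knockout ventral, 110 in the control ventral, 0 in the knockout dorsal and 25 in the control dorsal library. It had a UMI in 30 of 57 barcodes, and other epithelial barcodes held 1 UMI. The vesicular transporter Slc18a3, the choline transporter Slc5a7 and the esterase Ache had 0 UMIs. The choline transporter-like genes Slc44a1, Slc44a2 and Slc44a4 were 2.44-fold, 2.12-fold and 3.13-fold higher, which with Chat made 4 of 4 measured genes of the 8 listed at least 2-fold higher.

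Of 11 alarm and type 2 cytokine genes, 6 were measured, 2 at least 2-fold higher and 2 lower. Il17rb, a subunit of the receptor for interleukin-25, was 80.1-fold higher (61.6 to 104) and Il4ra 4.98-fold (3.91 to 6.26). Il25 itself, a rule gene, was at 131 CPM in the knockout ventral, 184 in the control ventral, 458 in the knockout dorsal and 37.5 in the control dorsal library. All 35 UMIs of the knockout dorsal library came from 1 cell. Il33 and Areg had 0 UMIs, and Tslp had 4.

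Genes for kinases and adaptors best known from blood cells were high throughout. Of 20 listed, 17 were measured and all 17 were at least 2-fold higher (median log2 ratio 5.32). Sh2d6 and Fyb are also among the 20 markers that chose the tuft-like barcodes. Sh2d6, an SH2-domain protein, was at 783 CPM in the knockout ventral, 1121 in the control ventral, 1506 in the knockout dorsal and 1902 in the control dorsal library. The dorsal libraries were the higher ones. Vav1, an exchange factor, was at 234 CPM in the knockout ventral, 231 in the control ventral, 196 in the knockout dorsal and 363 in the control dorsal library. Fyb, an adaptor, was 997-fold higher (846 to 1181) and Inpp5d, a lipid phosphatase, 683-fold (525 to 899).

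Defining markers of blood cells were read in the same barcodes. Ptprc, the pan-leukocyte surface phosphatase CD45 and 1 of the 17 measured, had 11 UMIs in 6 of 57 barcodes. It was at 8.70 CPM, 11.6-fold higher than in other epithelial barcodes (5.68 to 21.4), against 434 CPM in macrophage-like barcodes. The 6 T cell markers had 0 UMIs. Of 7 macrophage markers, Csf1r and C1qa had 0 UMIs, and 5 others held 159 UMIs together. Of 3 macrophage markers measured, 1 was at least 2-fold higher than in other epithelial barcodes and 1 lower. Summed macrophage markers were at 118 CPM in the knockout ventral, 124 in the control ventral, 118 in the knockout dorsal and 188 in the control dorsal library. The mixed barcodes of the control dorsal library also held macrophage markers, since their sum was 11096 CPM over all tuft-like barcodes there. Calca and Chga of neuroendocrine cells and Foxi1, Ascl3 and Cftr of ionocytes had 0 UMIs. The 8 neuroendocrine markers held 85 UMIs from 2 genes, and of 4 measured 1 was at least 2-fold higher and 2 lower. The 7 ionocyte markers held 4 UMIs from 1 gene. Of 4 B cell markers 1 was measured, with 22 UMIs, and it was at least 2-fold higher. The receptor Kit, also listed for mast cells, was 17.1-fold higher than in other epithelial barcodes.

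**Figure D3:**
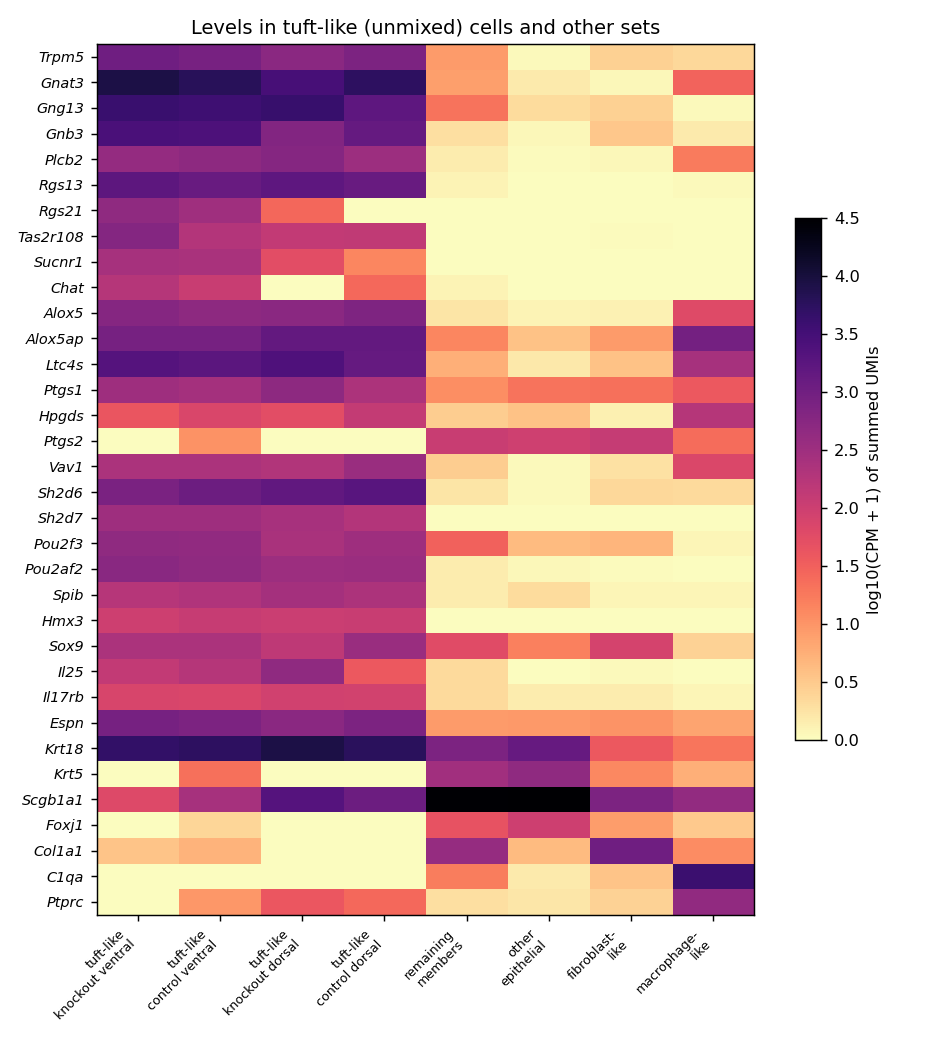
Levels as log10(CPM + 1) of summed UMIs for 34 genes (rows) in unmixed tuft-like barcodes of each library and in 4 other sets (columns). Rows such as Gnb3, Rgs13, Sh2d7 and Pou2af2 are dark in the 4 tuft-like columns and pale in the others, Rgs21 and Chat are pale in 1 dorsal library each, and Alox5ap and Ltc4s are also dark in macrophage-like barcodes.

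Structural genes set these barcodes apart by degree. Of 20 microvillus and cytoskeleton genes 14 were measured, 8 at least 2-fold higher and 3 lower. Espn, which encodes the actin-bundling protein espin, was 69.7-fold higher than in other epithelial barcodes (64.6 to 75.2), and was at 870 CPM in the knockout ventral, 759 in the control ventral, 511 in the knockout dorsal and 738 in the control dorsal library. The simple keratins Krt18 and Krt8 were 4.71-fold (4.60 to 4.83) and 4.03-fold (3.92 to 4.15) higher. Vil1, the villin gene of intestinal tuft cells, had 9 UMIs. Of 10 general epithelial genes 7 were at least 2-fold higher, Epcam among them at 3.92-fold (3.77 to 4.07).

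Genes that respond to tissue handling, such as Fos and Egr1, were lower, 10 of 10 by at least 2-fold (median log2 ratio -2.69). Fos was at 0.0437 times (0.0377 to 0.0505) the level in other epithelial barcodes. The 12 proliferation genes held 20 UMIs from 5 genes, and Mki67 had 0 UMIs. Only 3 were measured, 1 of them at least 2-fold lower and none higher (median log2 ratio -0.65). The unmeasured ones were expected below 10 UMIs from other epithelial barcodes too, so their low counts are no result.

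Since Ctnnb1 was the targeted gene and its product carries Wnt signals, Wnt pathway genes were read in the same barcodes. Of 17 listed, 12 were measured, 6 at least 2-fold higher and 3 lower than in other epithelial barcodes. Nkd1, a Wnt target that restrains the pathway, was 57.7-fold higher (50.3 to 66.2) and was at 251 CPM in the knockout ventral, 213 in the control ventral, 275 in the knockout dorsal and 250 in the control dorsal library. Lgr5, a Wnt target and receptor, was at 2.57, 5.56, 170 and 62.6 CPM in the same order. It had 23 UMIs in 10 barcodes, and 18 of the UMIs were dorsal. Axin2, the usual readout of the pathway, had 2 UMIs in the 57 barcodes.

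The targeted gene was at low levels in both genotypes, and its counts did not separate them beyond counting error. The intervals do not show that the levels were alike. Ctnnb1 was at 108 CPM in the knockout ventral library (77.7 to 146) and 135 CPM in the control ventral library (109 to 165), a ratio of 0.799 (0.542 to 1.16). In the knockout dorsal library it was at 105 CPM (45.2 to 206) from 8 UMIs, and in the control dorsal library at 75.1 CPM (27.6 to 163) from 6. In other epithelial barcodes it was at 181, 212, 208 and 259 CPM in the knockout ventral, control ventral, knockout dorsal and control dorsal library. Reads of a 5′ kit come from the start of the transcript and the deleted exons are not given in the labels, so these counts do not check the deletion.

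The eGFP reporter, which needs both recombinases and so marks cells that had cycled after P63 expression, was read in the same way. It was at 182 CPM in the knockout ventral, 337 in the control ventral, 210 in the knockout dorsal and 213 in the control dorsal library. The ratio of knockout to control in ventral barcodes was 0.541 (0.409 to 0.708), and in other epithelial barcodes 0.602. After thinning to 5000 UMIs, 58.3% of unmixed tuft-like barcodes in the knockout ventral library (27.7% to 84.8%) and 69.2% in the control ventral library (48.2% to 85.7%) had an eGFP UMI. Macrophage-like barcodes, which should lack it, had one in 22.3% and 27.4%, with median depths of 9899 and 8649 UMIs. In dorsal libraries 33.3% of 3 knockout and 60.0% of 5 control unmixed tuft-like barcodes had one, with intervals of 0.840% to 90.6% and 14.7% to 94.7% that hold the values of macrophage-like barcodes there, 34.5% and 43.4%.

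Among the 57 unmixed tuft-like barcodes, the balance of taste-type and immune-type tuft genes varied. The 10 taste-type genes include Gnb3, Plcb2 and Ovol3, and the 11 immune-type genes Sh2d6, Alox5ap and Ltc4s. The taste-type share of a barcode's UMIs had a median of 0.638% and ran between 0.114% and 1.29%, and the immune-type share had a median of 0.623% and ran between 0.05% and 1.30%. More immune-type than taste-type UMIs were in 4 of 12 barcodes of the knockout ventral library, in 11 of 31 of the control ventral, in 4 of 4 of the knockout dorsal and in 7 of 10 of the control dorsal library. Across 46 barcodes thinned to 5000 UMIs, the Spearman correlation of the 2 shares was -0.08, within the knockout ventral library it was -0.24 over 12 barcodes and within the control ventral library 0.17 over 26, all given as a description with no test. No gap divided the barcodes on these shares, and each had at least 1 UMI of both sets. The 20 markers that chose the barcodes hold genes of both sets, so a mixture was favoured by the choice. Shallow barcodes cannot decide this either, as a control dorsal barcode of 2000 UMIs had 8 taste-type UMIs and 1 immune-type UMI.

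**Figure D4:**
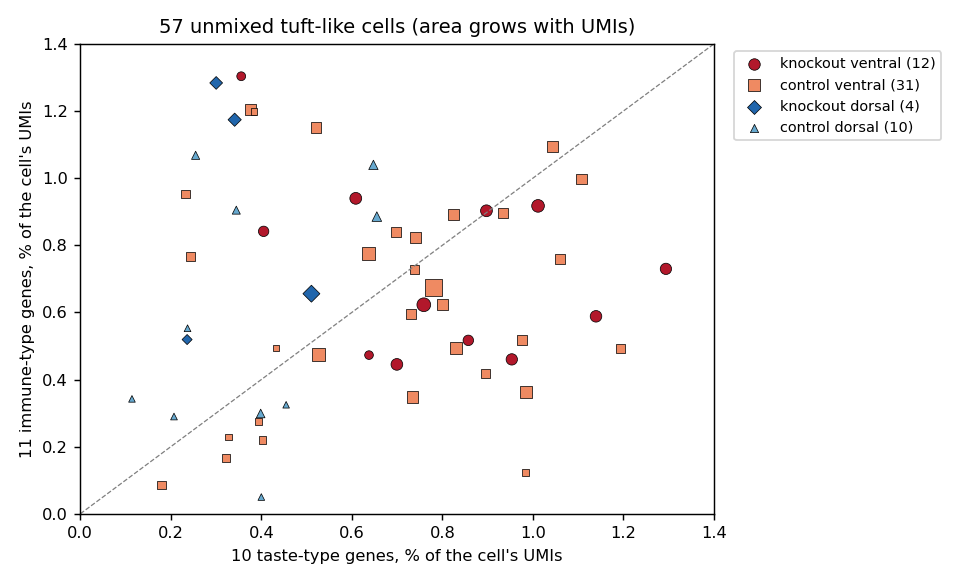
Each point is 1 of 57 unmixed tuft-like barcodes, placed by the percent of its UMIs in 10 taste-type genes (horizontal) and 11 immune-type genes (vertical), with area growing with its UMIs and the dashed line at equal shares. The points form 1 cloud, and the 4 knockout dorsal barcodes and 7 of 10 control dorsal barcodes lie above the line.

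Summed over barcodes, the immune-type UMIs were 0.851 times the taste-type UMIs in the knockout ventral library (0.809 to 0.896) and 0.927 times in the control ventral library (0.891 to 0.963). They were 2.18 times in the knockout dorsal library (1.90 to 2.50) and 1.63 times in the control dorsal library (1.44 to 1.86). The summed level of the taste-type genes in ventral over dorsal barcodes was 2.04 in knockouts (1.82 to 2.30) and 1.57 in controls (1.41 to 1.74), against 0.797 (0.733 to 0.868) and 0.888 (0.816 to 0.966) for immune-type genes. The 20 tuft markers as a whole had ratios of 1.04 in knockouts and 1.04 in controls. Since the barcodes were chosen by a minimum share of these markers, this does not show that the regions were alike in them. In other epithelial barcodes the ventral over dorsal ratios were 1.07 in knockouts and 1.17 in controls for the taste-type sum, and 0.376 and 0.420 for the immune-type sum, so the lower ventral level of immune-type genes was found there too and was further from 1.

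Depth and other cells' RNA moved with the region too. Control dorsal barcodes were the shallowest, and secretory markers summed to 642 CPM in the knockout ventral, 1367 in the control ventral, 3039 in the knockout dorsal and 2728 in the control dorsal library. Their part in the regional differences was not tested. With the 12 mixed barcodes added back, the immune-type to taste-type ratio was 0.824 in the knockout ventral, 0.940 in the control ventral, 2.18 in the knockout dorsal and 1.33 in the control dorsal library, still below 1 in both ventral and above 1 in both dorsal libraries. The ventral over dorsal ratios of the sums then were 1.59 in knockouts and 2.88 in controls for taste-type genes, and 0.601 and 2.03 for immune-type genes, so that the immune-type sum in controls turned direction.

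Some single genes differed between regions in the same direction in both genotypes. In unmixed tuft-like barcodes, 19.1% of 6492 genes were at least 2-fold higher and 7.49% at least 2-fold lower in the knockout ventral than in the knockout dorsal library, and of 8273 genes 15.5% were at least 2-fold higher and 908 genes at least 2-fold lower in the control ventral than in the control dorsal library. The genes described next were chosen after their values were seen, and the knockout dorsal side rests on 4 barcodes.

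The summed level of the taste and chemosensory receptors in ventral over dorsal barcodes was 5.39 in knockouts (3.37 to 9.17) and 2.46 in controls (1.57 to 4.07). Among single genes, Rgs21 had 176 UMIs in the knockout ventral library against 2 in the knockout dorsal, and 217 in the control ventral against 0 in the control dorsal, at least 8.04-fold with a floor of 3 counts. With the mixed barcodes included, the control dorsal library had 14 UMIs of Rgs21, which was 44.2 CPM against 263 CPM in the control ventral library. Sucnr1 had 102 UMIs against 4 in knockouts, a ratio of 5.00 (1.89 to 18.7), and 174 against 1 in controls, a ratio of 19.3 with a wide interval (3.43 to 768). Gnb3 had ratios of 4.22 (3.17 to 5.75) in knockouts and 1.86 (1.53 to 2.27) in controls. Ovol3, a zinc-finger factor, had ratios of 5.63 (3.18 to 11) and 2.51 (1.70 to 3.87). Oxr1, an oxidation resistance gene, had 3.82 (2.76 to 5.44) and 5.57 (3.70 to 8.83). Thinned to 5000 UMIs, 11 of 17 knockout ventral and 14 of 27 control ventral tuft-like barcodes had a Sucnr1 UMI, against 0 of 3 and 0 of 11 dorsal ones, where 0 of 11 allows a share of up to 28.5%.

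Other genes were lower in ventral barcodes. Il13ra1, a subunit of the interleukin-13 receptor, was at 82.1 CPM in the knockout ventral library against 642 in the knockout dorsal, and at 106 CPM in the control ventral against 438 in the control dorsal, with ratios of 0.128 (0.0793 to 0.204) and 0.241 (0.160 to 0.371). Plscr1, a phospholipid scramblase, had ratios of 0.137 (0.0874 to 0.212) and 0.227 (0.156 to 0.336). Without the barcode with most UMIs in each dorsal library, its ratios were 0.505 (0.252 to 1.10) and 0.279. Xbp1, a factor of secretory cells, had ratios of 0.247 and 0.375, and 0.632 (0.401 to 1.03) and 0.505 without the top dorsal barcode. H2-K1, a class I antigen-presenting molecule, had 0.492 (0.382 to 0.640) and 0.434 (0.356 to 0.532), and 0.720 and 0.596 without the top barcode. Sh2d6 had 0.520 (0.418 to 0.650) and 0.589 (0.495 to 0.706).

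**Figure D5:**
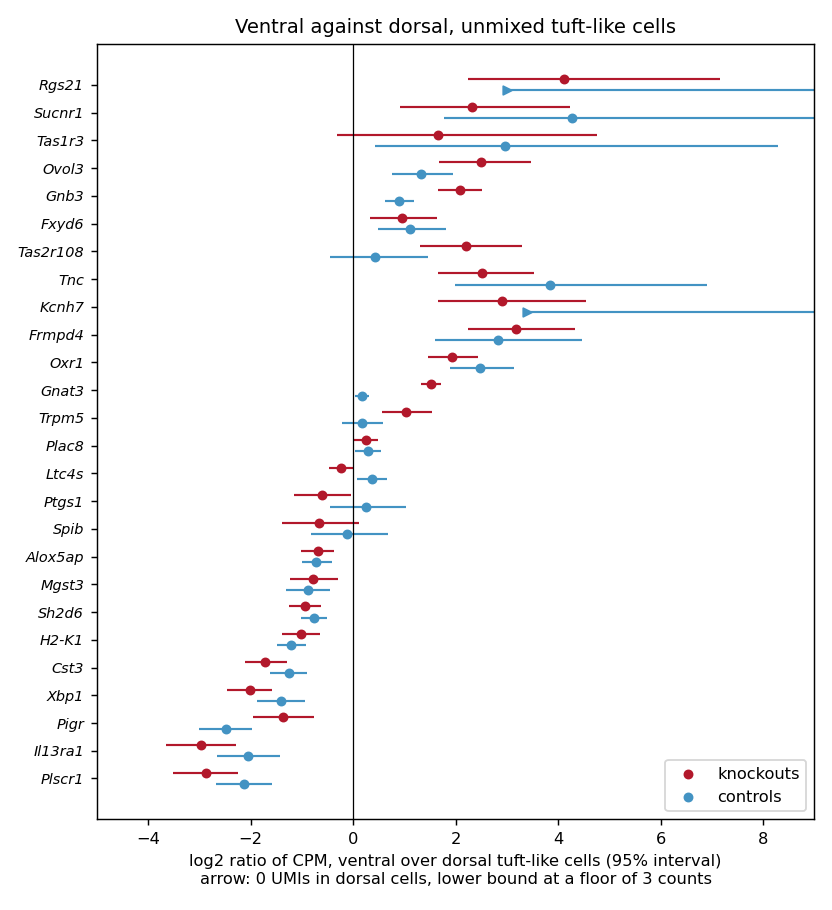
Log2 ratio of CPM in ventral over dorsal unmixed tuft-like barcodes, in knockouts and in controls, for 26 genes with 95% counting intervals, where an arrow starts at the lower bound given by a floor of 3 counts because dorsal barcodes had 0 UMIs. Rgs21, Sucnr1, Ovol3, Gnb3, Tnc, Kcnh7, Frmpd4 and Oxr1 lie right of 0 in both pairs, and Sh2d6, H2-K1, Cst3, Xbp1, Pigr, Il13ra1 and Plscr1 left of 0 in both.

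Between genotypes, the summed levels of tuft genes in unmixed ventral barcodes differed little, and turned direction when the mixed barcodes were added. Of 8400 genes measured, 3.73% were at least 2-fold higher and 5.96% at least 2-fold lower in the knockout ventral than in the control ventral library. None of 18 measured tuft markers was past 2-fold in either direction, and their summed level had a ratio of 1.05 (1.01 to 1.09). Tuft-like barcodes were chosen by these same markers, and barcodes low in them were left out beforehand. This sum therefore cannot show that the genotypes were alike. The ratio was 1.13 for taste-type genes (1.08 to 1.18), 1.04 for immune-type genes (0.991 to 1.09), 0.911 for kinases and adaptors (0.866 to 0.958) and 1.12 for eicosanoid synthesis (1.06 to 1.19). Over all tuft-like barcodes, 17 in the knockout ventral and 32 in the control ventral library, the ratios were 0.863 for tuft markers (0.836 to 0.890), 0.969 for taste-type genes (0.932 to 1.01), 0.849 for immune-type genes (0.815 to 0.885) and 0.907 for eicosanoid synthesis (0.861 to 0.956). In unmixed barcodes taste and chemosensory receptors stood higher, with 6 of 8 measured at least 2-fold and a summed ratio of 2.06 (1.81 to 2.35). They summed to 1270 CPM in the knockout ventral and 616 CPM in the control ventral library. Over all tuft-like barcodes the difference was smaller, at 824 CPM and 574 CPM.

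Tas2r108 was the receptor with most UMIs in the knockout ventral library, where listed receptors together had 495 UMIs, against 443 in the control ventral library. It had 236 UMIs in 12 of 12 knockout ventral barcodes and 133 UMIs in 27 of 31 control ventral barcodes, a ratio of 3.27 (2.64 to 4.08), and 2.65 (2.10 to 3.35) without the barcode with most UMIs. With the mixed barcodes included it was at 355 CPM in the knockout ventral and 173 CPM in the control ventral library. Frmpd4, a scaffold protein, had a ratio of 2.42 (2.08 to 2.81), and H1f2, a linker histone, 4.01 (2.54 to 6.46). Cd36, a scavenger receptor for lipids, had 195 UMIs in 4 of 12 knockout barcodes and 20 UMIs in 8 of 31 control barcodes, a ratio of 18.0 (11.3 to 30.1). It was thus high in a few barcodes and not in the group. Hpse2, Gm11033, A630073D07Rik and Tnc also met the rule for named genes, and 71 of 143, 46 of 81, 52 of 76 and 187 of 321 of their UMIs lay in 1 barcode each. Without it the ratio for Tnc was 1.05.

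On the lower side the named genes were S100a6, Gm56626, Fos, Jarid2, Srgn, Rgs7, Scgb1a1 and Egr1. Single control barcodes gave much of several of these, 89 of 143 UMIs for S100a6, 80 of 165 for Fos, 286 of 377 for Jarid2, 103 of 123 for Srgn and 48 of 69 for Egr1. Without that barcode the ratio for Srgn was 0.780 (0.313 to 1.79) and for Egr1 0.492 (0.163 to 1.26), against 0.135 and 0.160 with it. Gm56626 was lower in other epithelial barcodes as well, with a ratio of 0.0967 there and 0.0719 in tuft-like barcodes. Rgs7, another regulator of G-protein signalling, had 3 UMIs in 1 of 12 knockout barcodes and 54 UMIs in 17 of 31 control barcodes, a ratio of 0.102 (0.0205 to 0.316), and of 0.126 without the control barcode with most UMIs.

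In dorsal libraries the genotype comparison rests on 4 knockout and 10 control barcodes. Of 2027 genes measured, 10.6% were at least 2-fold higher and 11.9% lower in the knockout dorsal library. The 20 tuft markers, by which these barcodes were chosen, summed to a ratio of 1.05 (0.957 to 1.15). Taste-type genes summed to 0.868 (0.745 to 1.01) and immune-type genes to 1.16 (1.04 to 1.29). The taste-type sum lay nearer to 1 than its ventral over dorsal ratios did, and the sum of the 20 markers did not. The immune-type sum lay nearer to 1 than its ventral over dorsal ratio in knockouts, but not than that in controls.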

How the data were processed

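The libraries were made with a GEM-X 5′ kit after papain digestion, per the labels' protocols. The deposited UMI counts per gene and barcode were made by the authors with Cell Ranger 10.0.0 on GRCm39, per the submitters' processing notes, and hold 33697 features, eGFP among them. The annotation release is not given in the sources used here. Barcodes were filtered and chosen as the report says, and UMIs were summed per library with Python 3.11.15, NumPy 2.4.6, SciPy 1.17.1 and pandas 2.3.3. Doublets were marked with Scrublet in Scanpy 1.11.5, at a fixed rate in the knockout ventral library, and were kept in the main values. Shares have exact Clopper-Pearson intervals, levels exact Poisson intervals and ratios exact conditional intervals, all at 95%. They cover counting error only and leave out the spread between cells and mice, so a gene carried by 1 barcode is named as such. Levels are scaled to the UMIs summed over the barcodes, not per length, and are compared only within a gene. A gene counted as measured had at least 10 UMIs found or expected.

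Named genes were the 25 with the highest lower bound and the 10 with the lowest upper bound of the ratio to other epithelial barcodes, in the same direction in every library, and the 8 each way between the ventral genotypes. Set aside were the rule genes, sex-linked genes and those of mitochondria, ribosomal proteins, haemoglobins and immunoglobulins. The 7 genes, the lists and the rules were chosen with earlier results of these data known, and the division into tuft-like, mixed and remaining barcodes after the values were seen. The interval code was tested on simulated data. The values of 1 listed gene are not reported here, though counts over its lists include it.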

Additional observations from a re-analysis of the deposited data

How the results depend on the processing

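Which barcodes counted as tuft cells moved the results most. The pooled share of kept barcodes, 0.535%, was 0.370% with a rule sum of at least 6 UMIs, 0.655% with at least 3, 0.103% without barcodes holding 3 markers of another class, 0.186% with thinning to 5000 UMIs first, 0.192% for tuft-like and 0.159% for unmixed tuft-like barcodes. The pooled share of epithelial barcodes, 1.25%, was 0.865%, 1.52%, 0.241%, 0.409%, 0.449% and 0.371% under the same settings, and 1.01% with epithelial barcodes defined by at least 2 Epcam UMIs. The ventral to dorsal ratio of the share was 3.68, 5.62 and 3.91 in knockouts (without other-class markers, thinned, tuft-like), against 1.72, and 2.72 in tuft-like barcodes of controls, against 4.17. The dorsal knockout to control ratio, 1.59, was 0.714 and 0.689 without other-class markers and with thinning, and 0.535 and 0.857 for tuft-like and unmixed barcodes.

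Median log2 ratios over other epithelial barcodes without other-class markers, in tuft-like and in unmixed barcodes were 3.50, 3.28 and 3.64 for taste transduction, 7.12, 5.01 and 5.32 for kinases and adaptors and 2.50, 1.81 and 2.27 for transcription regulators. The fibroblast list turned to -2.43 and -3.21 without other-class markers and in unmixed barcodes, against 6.43 in all barcodes of the rule. Both settings leave out barcodes by fibroblast markers, so this fall follows from the choice of barcodes. In unmixed barcodes it rests on 1 measured gene of 7. Class II presentation genes turned to -0.62, -0.87 and -0.96 under those 3 settings, and lay between -0.075 without the control dorsal library and 1.91 without the knockout dorsal library when 1 library was left out. Genes at least 2-fold lower were 592 of 14878 measured (3.98%) in all barcodes of the rule. They were 1525 of 11875 (12.8%) in tuft-like and 1607 of 10956 (14.7%) in unmixed barcodes. They numbered 1258 without other-class markers, 1457 with the mean of per-cell CPM and 1444 with no filter on low counts. With no filter 5127 were higher, against 2683 of 14878. Totals for these last settings are not given here, so their counts cannot be read as shares.

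In ventral knockout over control barcodes, the summed levels for all barcodes of the rule reversed in tuft-like ones, to 0.863 for tuft markers, 0.969 for taste-type, 0.849 for immune-type and 0.907 for eicosanoid genes. In unmixed barcodes they were 1.05, 1.13, 1.04 and 1.12, and without other-class markers 1.15, 1.11 and 1.18 for the first 3 lists. The tuft-like set of the knockout ventral library holds 5 mixed barcodes and that of the control 1, and their part in this was not tested. The immune-type to taste-type ratio was 3.30 in the knockout dorsal library with thinning to 3000 UMIs, and 0.841 in the control ventral library over all barcodes of the rule. All other alternatives for these results, 124 in number, stayed within the limits set for no change. No paired analysis was possible because each group has 1 library and the labels give no replicate numbers.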

Other observations

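Interferon-response genes gave no common direction in the 57 unmixed tuft-like barcodes. Of 14 listed, 12 were measured, 3 at least 2-fold higher and 4 lower than in other epithelial barcodes, with a median log2 ratio of -0.38. Irf7, an interferon regulatory factor, was 2.09-fold higher, while Gbp2, a guanylate-binding protein, had 1 UMI and Cxcl10, a chemokine, 0 UMIs. Of 16 cadherin and junction genes, 15 were measured, 4 at least 2-fold higher and 2 lower. The desmosomal cadherin Dsg2 was 5.60-fold higher and the tight junction gene Cldn7 3.48-fold, while Cdh1, the E-cadherin gene whose product binds beta-catenin, had a ratio of 1.16 (1.06 to 1.27).

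Gnat3 was at 28.3 CPM in macrophage-like barcodes, against 0.503 CPM in other epithelial and 0.170 CPM in fibroblast-like barcodes. Otos, among the named higher genes, was at 56.5 CPM in the knockout ventral, 228 in the control ventral, 39.3 in the knockout dorsal and 0 CPM in the control dorsal library.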
